A study of Mus musculus with 12 samples.

Results

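Immunoglobulin heavy chain variable segments, the Ighv genes, were followed across 12 RNA-seq libraries of mouse bone marrow. All symbols of the deposited count table that begin with Ighv were taken, with no choice by expression, which gave 183 of 55291 symbols. They were described as a sum, by subfamily (the first number of the symbol, so that Ighv3-6 belongs to subfamily 3) and segment by segment. A count filter used for the tests passed 74 of the 183 segments, and 109 did not pass.

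The libraries came from non-adherent bone marrow cells labelled progenitors, taken from mice at 8 weeks and cultured for about 24 hours in the medium alpha-MEM. There were 4 groups with 3 libraries each. Control untreated and control SCFA mice carry the genotype label control, with no further allele named. Homozygous untreated and homozygous SCFA mice are labelled STAT3Cstopfl/fl CD4Cre, and the label of homozygous untreated 1 alone reads R26STAT3Cstopfl/fl CD4Cre. STAT3C is a constitutively active form of the transcription factor STAT3. The allele is kept silent by a stop cassette until a Cre recombinase driven by the CD4 promoter removes it, mainly in the T cell lineage. The SCFA groups had short-chain fatty acids, products of fibre fermentation by gut bacteria, in the drinking water, and the untreated groups did not. By their labels, untreated libraries date from day 1 and SCFA libraries from day 30 of month 3, and an effect of SCFA cannot be told apart from one of date. Whether the 3 libraries of each group stand for 3 mice is not stated, so that p-values measure the spread between libraries, which may be technical.

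In developing B cells of the marrow, the recombinase made by Rag1 and Rag2 joins 1 variable segment to a diversity and a joining segment to make the variable exon of the heavy chain. The segments lie side by side on one chromosome, each with its own promoter, and a rearranged one is transcribed strongly together with a constant region, first Ighm. Segments not yet joined can also be transcribed from their own promoters as germline transcripts. Distal segments, far from the joining segments, need the locus to fold up before they can be used, a step in which Pax5, Yy1, Ikzf1 and Ezh2 are known to act. Each B cell carries 1 productive heavy chain rearrangement, so a pool of many B cells holds transcripts of many segments.

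GENCODE M21, an annotation of mm10 (GRCm38), places all 183 symbols on the minus strand of chromosome 12 between positions 113572927 and 116010093, a stretch of 2.44 Mb. GENCODE lists 113 of them as immunoglobulin variable genes and 70 as pseudogenes. A segment has a short leader exon and a V exon that codes for the variable domain. The V exons of the 3 segments that the results below turn on most are shown here, each 5′ to 3′ in the direction of transcription, because they are the most counted segment in control mice, the most counted segment in homozygous mice given SCFA, and the pseudogene whose share of the sum differed most visibly between groups. Capitals mark the codon of an aromatic residue followed by that of the conserved cysteine (T, A or T, C or T, TG, then T or C), found by a match near the 3′ end, where the variable segment ends and the diversity segment is joined. The V exon of Ighv3-6 lies at chr12:114288152-114288458 (307 bases, of which the last 290 are shown), that of Ighv9-3 at chr12:114140692-114140996 (305 bases, the last 290 shown) and that of Ighv1-41 at chr12:114932371-114932653 (all 283 bases shown), all on the minus strand.
Ighv3-6: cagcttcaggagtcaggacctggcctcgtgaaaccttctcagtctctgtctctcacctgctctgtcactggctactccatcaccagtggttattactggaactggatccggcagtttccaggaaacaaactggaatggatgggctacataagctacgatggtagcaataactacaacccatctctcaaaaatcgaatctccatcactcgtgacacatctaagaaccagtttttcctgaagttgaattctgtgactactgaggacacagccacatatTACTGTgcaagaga
Ighv9-3: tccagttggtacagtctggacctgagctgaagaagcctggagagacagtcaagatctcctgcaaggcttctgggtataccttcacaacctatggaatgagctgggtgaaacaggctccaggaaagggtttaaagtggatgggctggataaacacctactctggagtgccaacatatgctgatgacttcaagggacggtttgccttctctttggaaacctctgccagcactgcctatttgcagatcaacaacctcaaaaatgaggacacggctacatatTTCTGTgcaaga
Ighv1-41: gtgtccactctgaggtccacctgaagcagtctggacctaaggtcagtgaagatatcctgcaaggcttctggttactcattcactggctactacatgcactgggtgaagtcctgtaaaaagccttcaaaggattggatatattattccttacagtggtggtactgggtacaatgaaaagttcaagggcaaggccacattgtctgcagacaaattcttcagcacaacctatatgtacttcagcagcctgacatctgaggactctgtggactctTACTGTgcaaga

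The last 60 bases of further V exons show how much the segments share and where they differ, again with the aromatic and cysteine codons in capitals. They are those of 6 more of the 10 most abundant segments and of 3 segments with 0 counts in homozygous mice given SCFA (Ighv1-2, Ighv1-67 and Ighv1-42). Ighv7-1 and Ighv1-78 are shown as well, because they did not follow the other segments in some of the comparisons.
Ighv6-3: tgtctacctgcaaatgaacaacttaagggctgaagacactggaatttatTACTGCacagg
Ighv10-1: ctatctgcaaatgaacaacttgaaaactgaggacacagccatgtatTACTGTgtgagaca
Ighv10-3: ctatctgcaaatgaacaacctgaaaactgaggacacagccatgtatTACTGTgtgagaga
Ighv1-64: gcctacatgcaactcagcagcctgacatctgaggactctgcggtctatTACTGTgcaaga
Ighv1-26: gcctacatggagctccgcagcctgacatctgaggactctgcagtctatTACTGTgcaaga
Ighv5-4: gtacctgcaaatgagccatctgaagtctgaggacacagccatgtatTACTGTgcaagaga
Ighv1-2: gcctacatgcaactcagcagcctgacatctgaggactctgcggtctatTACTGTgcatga
Ighv1-67: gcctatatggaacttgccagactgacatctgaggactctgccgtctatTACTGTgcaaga
Ighv1-42: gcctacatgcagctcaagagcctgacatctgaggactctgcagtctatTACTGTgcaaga
Ighv1-78: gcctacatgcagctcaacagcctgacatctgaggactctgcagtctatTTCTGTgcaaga
Ighv7-1: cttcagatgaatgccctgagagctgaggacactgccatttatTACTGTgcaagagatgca

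Likeness between segments limits how well reads can be assigned. Among the 74 segments that passed the filter, the closest other segment was 95.2% identical over the aligned V exon at the median (range 79.1% to 99.0%), and 41 had a neighbour with at least 95% identity. For 71 of the 74, that closest segment belonged to the same subfamily. Ighv10-1 and Ighv10-3 differ at 10 of 313 aligned bases, Ighv1-18 and Ighv1-26 at 8 of 305, and Ighv1-52 and Ighv1-61 at 4 of 305. Reads of such pairs may have been divided or dropped in the counting, so a value of a single segment is less certain than that of its subfamily or of the sum. Ighv1-2, Ighv1-5 and Ighv1-57 overlap another annotated gene, and the counting is not known to use strand.

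Total counts per library ranged from 16954355 to 20748995. Levels are given as CPM, the count divided by the library's total and scaled alike for all libraries. A count of 0 allows a level of 0.145 to 0.177 CPM, depending on the library (3 counts, for counting error only). Progenitor markers were present in all 12 libraries: Kit, the stem cell factor receptor, ranged from 45.1 to 73.0 CPM, Cd34 from 45.5 to 87.5 CPM and Mpo, of granulocyte precursors, from 875 to 2752 CPM. Their levels were not alike in all groups (edgeR). Cd34 was higher in untreated homozygous than control mice (log2 fold change 0.74, adjusted p = 0.00192). With SCFA, Cd34 (-0.74, adjusted p = 0.00166) and the progenitor marker Flt3 (-0.69, adjusted p = 0.00876) fell in homozygous mice, and Mpo fell in controls (-0.91, adjusted p = 0.00688). Mpo was higher in homozygous mice under SCFA (0.74, adjusted p = 0.0128), and Kit was never called. Cd79a, a signalling chain of the B cell receptor and a B-lineage marker, was present too, at 27.4 to 360 CPM. Stat3 itself, whose modified form the homozygous mice carry, had a mean of 383 CPM in untreated controls, 283 in untreated homozygous mice, 238 in controls given SCFA and 357 in homozygous mice given SCFA. It was not called between genotypes without SCFA (log2 fold change -0.28, adjusted p = 0.221, edgeR's quasi-likelihood test). Under SCFA it was higher in homozygous than in control mice (0.60, adjusted p = 0.0157, edgeR). With SCFA, Stat3 fell in control mice (-0.58, adjusted p = 0.0192, edgeR) and was not called in homozygous mice (0.31, adjusted p = 0.240). Its counts do not separate the modified from the native form.

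Of the 183 segments, 133 had at least 1 count, 21 of these with fewer than 10 counts over all libraries, and 50 had 0 counts in every library. Segments at 0 everywhere were mostly pseudogenes, 42 of 70 against 8 of 113 variable genes. The 74 segments that passed the filter held 95.6% of all Ighv counts, and 45 segments had counts in all 12 libraries. By group, 124 segments had counts in untreated controls, 109 in untreated homozygous mice, 125 in controls given SCFA and 94 in homozygous mice given SCFA. There were 19 segments with counts in each of the other 3 groups and 0 counts in homozygous mice given SCFA.

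Summed over all segments, Ighv transcripts were lower in homozygous than in control mice, and lowest in homozygous mice given SCFA. The sum was 176, 195 and 199 CPM in the control untreated libraries, 93.4, 93.5 and 94.2 CPM in untreated homozygous mice, 218, 219 and 212 CPM in controls given SCFA, and 37.4, 50.4 and 42.6 CPM in homozygous mice given SCFA. Each group had a range of its own, with no overlap between any groups. Group means were 190 CPM in untreated controls, 93.7 in untreated homozygous mice, 216 in controls given SCFA and 43.5 in homozygous mice given SCFA. The homozygous mean was thus 0.493 of the control mean without SCFA, which is 2.03-fold lower, and 0.201 of it under SCFA, which is 4.98-fold lower. Within homozygous mice the SCFA mean was 0.464 of the untreated mean (2.16-fold lower), and within control mice it was 1.14 of it. The sum covers a mixed population of non-adherent marrow cells, where fewer B-lineage cells and less RNA per cell cannot be told apart.

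**Figure D1:**
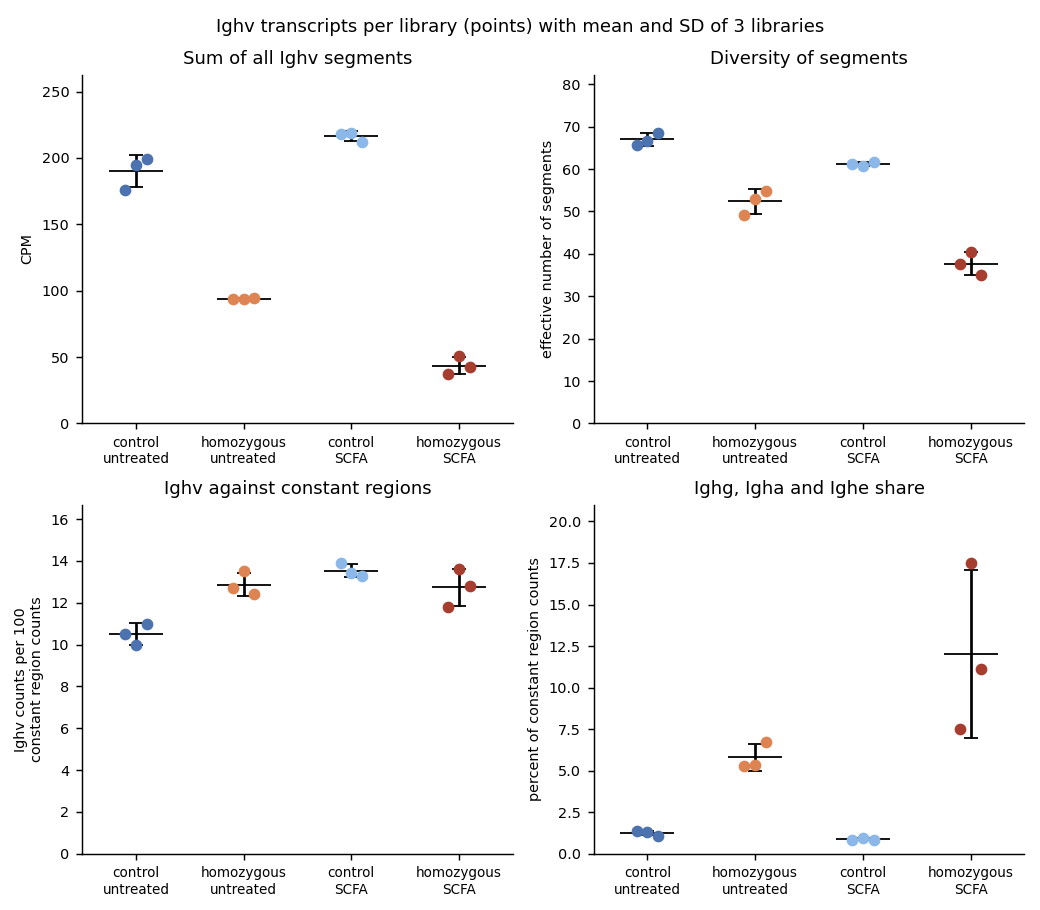
Ighv transcripts in the 12 libraries (points), with the mean and SD of 3 libraries per group: summed CPM, effective number of segments, Ighv counts per 100 heavy chain constant region counts, and the percent of constant region counts from Ighg, Igha and Ighe genes. Summed Ighv is at most 219 CPM in controls given SCFA, 199 CPM in untreated controls and 50.4 CPM in homozygous mice given SCFA. Ighv counts per 100 constant region counts stay between 9.96 and 13.9 in all libraries.

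Ighm, whose constant region is part of the same transcripts as the segments, was also lower in homozygous mice. It had a mean of 1560 CPM in untreated controls, 501 in untreated homozygous mice, 1273 in controls given SCFA and 211 in homozygous mice given SCFA. Its fitted log2 fold change between genotypes was -1.49 ± 0.11 (SE) without SCFA (adjusted p = 1.2e-06, edgeR's quasi-likelihood test) and -2.58 ± 0.11 under SCFA (adjusted p = 1.5e-09). Ighv counts per 100 counts of all constant regions were 10.5, 9.96 and 11.0 in untreated controls, 12.7, 13.5 and 12.4 in untreated homozygous mice, 13.9, 13.4 and 13.3 in controls given SCFA, and 11.8, 13.6 and 12.8 in homozygous mice given SCFA. The 3 control untreated libraries were thus the lowest of the 12, and the other 3 groups overlapped. Without the most counted segment, all homozygous SCFA libraries lay below the control SCFA libraries (ratio of means 0.929 in place of 0.941). Set against Ighm alone, the ratio was higher in homozygous mice: 11.1 to 12.8 per 100 Ighm counts in untreated controls, 17.8 to 20.0 in untreated homozygous mice, 16.9 to 17.2 in controls given SCFA and 18.6 to 23.4 in homozygous mice given SCFA.

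Class-switched constant regions, Ighg, Igha and Ighe, which mature B cells use after antigen contact, took a larger share in homozygous mice. They made up 1.34%, 1.28% and 1.08% of constant region counts in untreated controls, 5.30%, 5.34% and 6.75% in untreated homozygous mice, 0.842%, 0.964% and 0.841% in controls given SCFA, and 7.53%, 17.5% and 11.1% in homozygous mice given SCFA. Both homozygous groups lay above both control groups, and homozygous SCFA 2 stood highest. The share depends on Ighm too, which was lower in homozygous mice. Without SCFA, no Ighg or Igha gene was called between genotypes (adjusted p = 0.101 to 0.370, edgeR). Under SCFA, Ighg2b rose (1.53 ± 0.45, adjusted p = 0.0294), while Ighg1, Ighg2c and Ighg3 were not called. Igha fell with SCFA in control mice (log2 fold change -1.98 ± 0.32, adjusted p = 0.00390, edgeR) and was higher in homozygous than control mice under SCFA (2.41 ± 0.32, adjusted p = 1.6e-04). Ighe had 0 counts in all 12 libraries. Joining segments followed the sum, with 134, 166 and 179 counts in untreated controls, 91, 130 and 112 in untreated homozygous mice, 253, 268 and 186 in controls given SCFA and 27, 53 and 11 in homozygous mice given SCFA. Diversity segments, which are too short to hold many reads, had 7 to 21 counts per library in the other 3 groups and 0 in all 3 libraries of homozygous mice given SCFA.

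Among the 16 subfamilies, subfamily 1 was the largest in every library and was lower in homozygous mice with and without SCFA. It has 92 members, of which 38 passed the filter, and spans the middle and distal part of the locus. Its summed level was 86.1 ± 3.25 CPM (SD, n = 3) in untreated controls, 32.9 ± 3.31 in untreated homozygous mice, 89.6 ± 2.35 in controls given SCFA and 18.8 ± 2.25 in homozygous mice given SCFA. The homozygous level was 2.61-fold lower than the control level without SCFA and 4.76-fold lower under SCFA, with no overlap of libraries in either comparison. As a share of all Ighv counts, subfamily 1 took 43.3% to 47.1% in untreated controls, 31.2% to 37.6% in untreated homozygous mice, 40.2% to 42.3% in controls given SCFA and 42.3% to 45.6% in homozygous mice given SCFA. Its share was thus lower in untreated homozygous mice than in any other group.

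Subfamilies 3, 6 and 10 differed from subfamily 1 in where they were high. Subfamily 3 had 9.00 ± 1.94 CPM in untreated controls, 5.77 ± 2.14 in untreated homozygous mice, 18.9 ± 1.35 in controls given SCFA and 1.76 ± 0.525 in homozygous mice given SCFA. Subfamily 10 had 9.02 to 11.5, 5.02 to 8.12, 14.7 to 18.5 and 0.711 to 1.91 CPM in the same order of groups, and subfamily 6 had 9.06 ± 0.479, 6.91 ± 0.700, 11.9 ± 0.773 and 1.43 ± 1.11 CPM. All 3 were higher in every control SCFA library than in any control untreated library, by 2.09-fold, 1.71-fold and 1.32-fold in the means. Under SCFA the homozygous level was 10.7-fold, 12.3-fold and 8.36-fold lower than the control level. Without SCFA the genotypes overlapped in subfamily 3 and stood 1.44-fold apart in subfamily 10 and 1.31-fold apart in subfamily 6.

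Subfamily 9 did not differ in level between the homozygous groups beyond the spread of libraries. With 10.4 ± 2.09 CPM in untreated controls, 4.65 ± 1.14 in untreated homozygous mice, 12.2 ± 2.04 in controls given SCFA and 4.69 ± 1.80 in homozygous mice given SCFA, its means in the homozygous groups were close to each other (ratio 1.01), and those libraries overlapped. Its share of Ighv counts was 4.56% to 6.49% over both control groups, 3.65% to 6.10% in untreated homozygous mice and 8.70% to 13.3% in homozygous mice given SCFA. Subfamilies 12, 13 and 14 also overlapped between the homozygous groups, with ratios of 0.994, 0.874 and 0.838 of the means, and the share of subfamily 14 was higher with SCFA in homozygous mice, as that of subfamily 9 was. Subfamilies 4 and 7 overlapped between the groups in every comparison of levels. Subfamily 4, in which only Ighv4-1 passed the filter, ranged from 0 to 4.17 CPM within homozygous mice given SCFA alone. Subfamily 5, next in size after subfamily 1, had 30.4 ± 3.07, 14.9 ± 2.69, 30.8 ± 3.23 and 6.27 ± 1.42 CPM in untreated controls, homozygous untreated, control SCFA and homozygous SCFA mice. Subfamily 16, with 1 member, had 0 counts throughout.

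Counted over the 16 subfamilies, the homozygous libraries lay wholly below the control libraries in 11 without SCFA and in 13 under SCFA, and wholly above in 0 in both. Control SCFA libraries lay wholly above control untreated ones in 4 subfamilies (3, 6, 10 and 13) and below in 0. Homozygous SCFA libraries lay wholly below homozygous untreated ones in 8 and above in 0. Over the 74 segments that passed the filter, the homozygous libraries lay wholly below the control libraries in 41 without SCFA and in 60 under SCFA, and wholly above in 0 in both. SCFA libraries lay wholly below untreated ones in 2 segments in control and 31 in homozygous mice, and wholly above in 12 and 2. For comparison, among all 15674 genes tested the share without overlap was 22.9% lower and 9.18% higher for genotype without SCFA, 21.3% lower and 17.9% higher for genotype under SCFA, 23.3% lower and 13.9% higher for SCFA in control mice, and 15.3% lower and 14.3% higher for SCFA in homozygous mice. The segments stood far from this background on the lower side in the 3 comparisons that involve homozygous mice. A segment that passed the filter only through counts in a group where it was high had to be lower elsewhere, and these counts are descriptions. The same limit holds for the numbers of calls and the medians over the 74 segments given below.

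**Figure D2:**
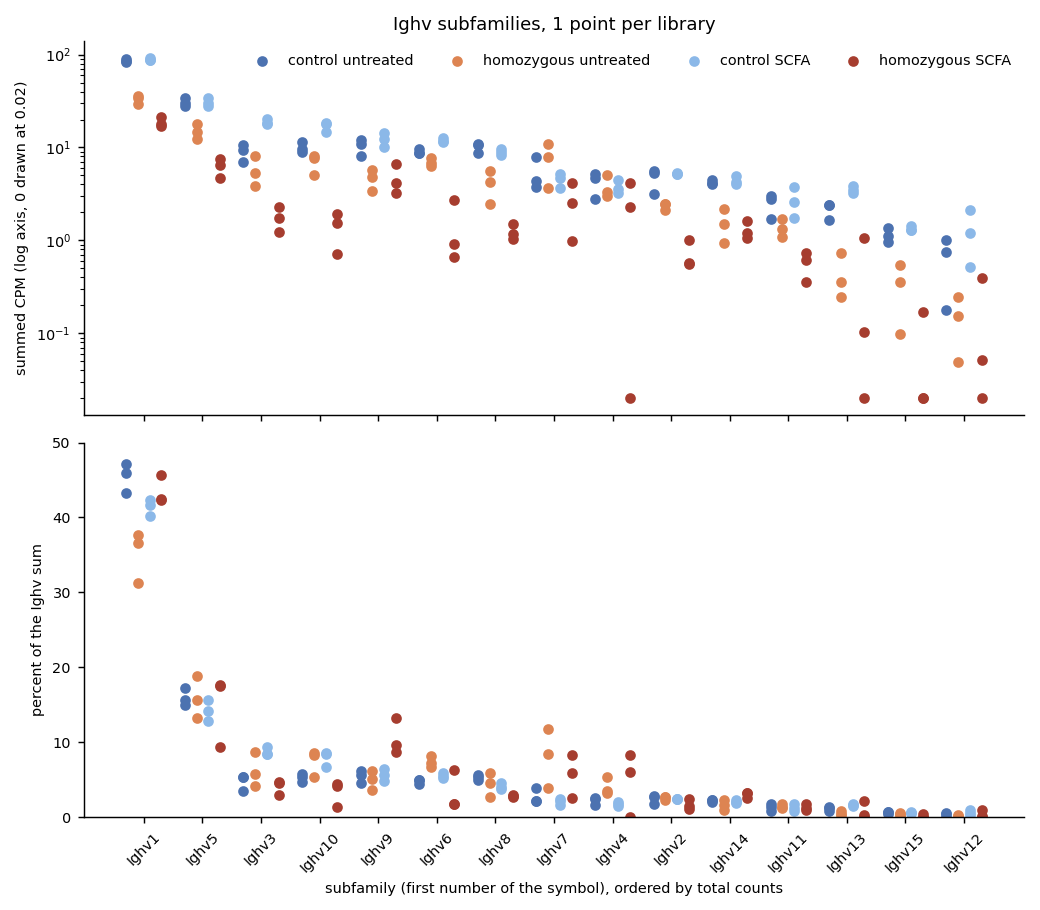
Summed CPM (upper plot, log axis, with 0 drawn at 0.02) and percent of all Ighv counts (lower plot) for the 15 Ighv subfamilies with counts, 1 point per library, in order of total counts. Subfamily 1 is the largest throughout, and the homozygous SCFA points lie lowest in CPM for most subfamilies but overlap with the homozygous untreated points in subfamilies 4, 7 and 9, among others.

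Genotype without SCFA. In untreated mice fewer segments passed the test than under SCFA, and all that passed were lower in homozygous animals. Of the 74 segments tested, 11 fell and 0 rose (edgeR's quasi-likelihood test with p adjusted by Benjamini-Hochberg over 15674 genes, called under 0.05), where 8.13% of all genes tested fell and 6.69% rose. At an unadjusted p under 0.05, 1 segment rose, and DESeq2 and limma-voom also called 0 rises. DESeq2 gave no adjusted p for 12 of the 74 segments here and could not call them. The median log2 fold change was -1.12 over the 74 segments and -0.04 over all genes tested, with 70 segments below 0 and 4 above. Without the filter the median was -1.16 over 133 segments. By subfamily, the 11 were 7 of 38 tested in subfamily 1, 2 of 9 in subfamily 5, 1 of 4 in subfamily 8 and 1 of 4 in subfamily 9. The count went down to 5 without control untreated 2, to 5 without homozygous untreated 2 and to 7 without control untreated 3.

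Ighv1-69 had 2.97, 4.95 and 2.64 CPM in untreated controls and 0.616, 0.536 and 0.847 CPM in untreated homozygous mice. The groups were far apart, and the fitted log2 fold change was -2.24 ± 0.46 (SE, adjusted p = 0.00694, edgeR). Ighv1-81, near the distal end of the locus, had 4.49, 4.25 and 4.39 CPM in control and 1.33, 1.02 and 0.598 CPM in homozygous libraries, a change of -1.99 ± 0.45 (adjusted p = 0.0117). Ighv1-64, the most abundant member of subfamily 1, had 7.63, 6.49 and 7.29 CPM in control and 1.74, 2.14 and 2.64 CPM in homozygous libraries, a change of -1.57 ± 0.33 (adjusted p = 0.00771). These 3 calls held in every alternative fit that was run. Ighv9-3, a proximal segment, had 4.84, 7.08 and 8.30 CPM in control and 2.67, 2.88 and 2.34 CPM in homozygous libraries (-1.20 ± 0.27, adjusted p = 0.0119, edgeR), a call lost when only the groups compared were fitted (adjusted p = 0.0603).

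Other calls without SCFA depended on single libraries or on the fit. Ighv1-54, with 98 counts in control and 20 in homozygous libraries, had the largest fall among the calls (-2.31 ± 0.62, adjusted p = 0.0254), and the call was lost without control untreated 2 or 3 or homozygous untreated 1 or 2 (highest adjusted p = 0.0920), and without the filter on low counts (0.0509). Ighv1-52, with 121 against 28 counts (-2.13 ± 0.60, adjusted p = 0.0302), lost its call without control untreated 2 or 3 or homozygous untreated 1 or 3 (highest adjusted p = 0.111), and with only the groups compared (0.0988). Ighv5-4 had 6.41, 6.78 and 4.81 CPM in control and 1.49, 2.24 and 2.59 CPM in homozygous libraries (-1.36 ± 0.38, adjusted p = 0.0297). That call was lost without control untreated 2 or homozygous untreated 1 or 2 (highest adjusted p = 0.114), and with only the groups compared (0.0539).

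Several abundant segments did not pass the test between untreated genotypes. Ighv6-3 had 6.06, 7.14 and 5.76 CPM in control and 5.33, 4.63 and 5.58 CPM in homozygous libraries (-0.14 ± 0.51, adjusted p = 0.879), and Ighv4-1 had a fitted change of 0.03 ± 0.74 (adjusted p = 0.983). Ighv7-1 had the highest fitted change of all, 1.30 ± 0.56 (adjusted p = 0.127). Its levels were 7.85, 6.53 and 2.14 CPM in homozygous against 1.34, 1.59 and 4.60 CPM in untreated controls, and 1 library of each group crossed over to the range of the other. It was the most counted segment in homozygous untreated 1 and 2, with 8.40% and 6.99% of all Ighv counts.

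Genotype under SCFA. With SCFA in the water, most of the tested segments fell in homozygous mice, among them most of the abundant ones. The test called 44 of 74 segments lower and 0 higher (edgeR, adjusted p under 0.05), where 8.47% of all genes tested fell and 8.89% rose. At an unadjusted p under 0.05, 0 segments rose, as with DESeq2 and limma-voom. The median log2 fold change was -2.83 over the 74 segments, or -2.78 when the 4 segments with 0 counts in homozygous mice given SCFA were set at the bound that 3 counts allow, and -0.02 over all genes tested. Without the filter the median was -2.71 over 133 segments. By subfamily, 22 of 38 tested segments fell in subfamily 1, 4 of 9 in subfamily 5, 3 of 4 in subfamily 9, and all tested members of subfamilies 2, 6 and 10 (2 of 2 each), while 0 of 3 fell in subfamilies 4 and 7 together. Of the 11 segments called without SCFA, 10 were also called here, which is 90.9% of the first list and 22.7% of the second. Both comparisons come from 1 fit, with no library in common.

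Ighv3-6, the segment with the most counts over all libraries, had 16.5, 16.8 and 14.8 CPM in controls given SCFA and 1.34, 1.68 and 1.01 CPM in homozygous mice given SCFA. Its fitted log2 fold change was -3.55 ± 0.30 (adjusted p = 1.5e-06, edgeR). Ighv1-26 had 5.11, 5.33 and 5.48 CPM in control and 0.464, 0.559 and 0.393 CPM in homozygous libraries, a change of -3.46 ± 0.38 (adjusted p = 2.2e-05). Within each group the libraries of both segments were close together, and the groups were far apart. Ighv10-1 had 9.45, 7.58 and 6.16 CPM in control and 0.0516, 0.559 and 1.01 CPM in homozygous libraries (-3.82 ± 0.56, adjusted p = 3.6e-04). Its close copy Ighv10-3 had 9.06, 7.09 and 12 CPM in control and 1.50, 0.152 and 0.898 CPM in homozygous libraries (-3.44 ± 0.58, adjusted p = 0.00113). Ighv6-3 had 7.86, 7.58 and 7.59 CPM in control and 0.0516, 0.457 and 1.80 CPM in homozygous libraries (-3.32 ± 0.59, adjusted p = 0.00166), so that the homozygous libraries differed among themselves more than the control ones.

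Some segments were not seen at all in homozygous mice given SCFA. The pseudogene Ighv1-2 had 21, 22 and 23 counts in the control SCFA libraries and 0 in each library of homozygous mice given SCFA, at least 21.3-fold lower against a floor of 3 counts over the group (adjusted p = 0.00201, edgeR). Ighv1-67 had 43 counts against 0, at least 13.9-fold lower (adjusted p = 0.00421), and Ighv1-42 had 29 against 0, at least 9.36-fold lower (adjusted p = 0.00622). Ighv1-63 had 67 counts against 1, a ratio of 64.9 with a 95% counting interval of 11.3 to 2601 (adjusted p = 0.00309). The pseudogene Ighv1-57, also at 0, had 18 counts in controls given SCFA and was not called (adjusted p = 0.0793). The 4 called ones are segments of modest level, between 0.354 and 0.584 CPM on average over all libraries.

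Several segments stood apart from these falls under SCFA. Ighv9-3, the most counted segment in all 3 libraries of homozygous mice given SCFA with 8.01%, 9.27% and 8.56% of their Ighv counts, had 2.99, 4.67 and 3.65 CPM there and 9.06, 9.35 and 7.07 CPM in controls given SCFA. It fell by 1.15 on the log2 scale (SE 0.27, adjusted p = 0.00897, edgeR), the smallest size among the 44 calls. The pseudogene Ighv1-41 had 2.84, 3.35 and 3.09 CPM in homozygous and 4.43, 5.63 and 4.11 CPM in controls given SCFA, a change of -0.59 ± 0.35 that did not pass (adjusted p = 0.267). Ighv7-1, at 0.49 ± 0.58 (adjusted p = 0.620), Ighv1-78, at -0.21 ± 0.53 (adjusted p = 0.834), and Ighv4-1, at -0.68 ± 0.76 (adjusted p = 0.589), did not pass either. For Ighv4-1 the homozygous SCFA libraries had 44, 82 and 0 counts, a spread that covered the range of the control libraries. With limma-voom and its sample weights, Ighv4-1 was called under SCFA at -3.50 (adjusted p = 0.0252), for SCFA in homozygous mice at -3.67 (adjusted p = 0.0298) and in the interaction at -3.38 (adjusted p = 0.0398), and in no other alternative. Ighv5-17 had 6, 10 and 55 counts there (-1.44 ± 0.62, adjusted p = 0.124), and without homozygous SCFA 3 it was called at -3.06 (adjusted p = 0.00104).

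SCFA in control mice. In control mice SCFA went with a small change of the sum and with few changed segments. Of the 74 tested, 2 rose and 0 fell (edgeR, adjusted p under 0.05), where 8.89% of all genes tested rose and 13.0% fell. At an unadjusted p under 0.05, 0 segments fell, and DESeq2 and limma-voom called 0 falls. DESeq2 gave no adjusted p for 33 of the 74 segments here and could not call them. The median log2 fold change was 0.20 over the 74 segments and 0.04 over all genes tested. Ighv3-6 rose from 7.98, 5.60 and 8.03 CPM in untreated controls to 16.5, 16.8 and 14.8 CPM in controls given SCFA (log2 fold change 1.25 ± 0.27, adjusted p = 0.00824). It was the most counted segment in all 3 control SCFA libraries, with 7.56%, 7.67% and 6.98% of their Ighv counts. Ighv1-41 rose from 1.46, 1.47 and 2.96 CPM to 4.43, 5.63 and 4.11 CPM (1.37 ± 0.36, adjusted p = 0.0170), a call lost without control untreated 2 or control SCFA 2 or 3 (highest adjusted p = 0.0813), which left 1 called segment.

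SCFA in homozygous mice. In homozygous mice the segments were again mostly lower with SCFA. Of the 74 tested, 21 fell and 1 rose (edgeR, adjusted p under 0.05), where 5.61% of all genes tested fell and 3.96% rose. DESeq2 called 1 rise and limma-voom 0, where DESeq2 gave no adjusted p for 5 of the 74 segments. The median log2 fold change was -1.44 over the 74 segments and -0.00 over all genes tested. With only the homozygous groups fitted, 43 segments passed the filter, at a median of -1.37. Without the filter the median was -1.10 over 133 segments. This comparison shares the homozygous SCFA libraries with the genotype comparison under SCFA, so that the same low values enter both. Ighv3-6 fell from 4.67, 6.04 and 3.34 CPM to 1.34, 1.68 and 1.01 CPM (-1.83 ± 0.30, adjusted p = 0.00119), and Ighv1-26 from 2.31, 3.56 and 1.64 CPM to 0.464, 0.559 and 0.393 CPM (-2.42 ± 0.37, adjusted p = 7.6e-04). Ighv6-3 fell from 5.33, 4.63 and 5.58 CPM to 0.0516, 0.457 and 1.80 CPM (-2.80 ± 0.59, adjusted p = 0.00797). Without homozygous untreated 2, the number of called segments was 14 in place of 22.

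Among low segments, Ighv1-2 had 26 counts in untreated homozygous mice and 0 in homozygous mice given SCFA, at least 8.20-fold lower (adjusted p = 0.0121, edgeR). Ighv9-1 had 38 counts against 2, a ratio of 18.0 with a 95% counting interval of 4.65 to 154 (adjusted p = 0.0201), and lost its call without homozygous untreated 2 or homozygous SCFA 2 or 3. Ighv1-42 and Ighv1-67, with 11 and 10 counts against 0, were at least 3.47-fold and 3.15-fold lower (adjusted p = 0.0383 and 0.0493, edgeR), and the calls were lost in 14 of 16 and in 15 of 17 alternative fits. The 1 segment that rose was Ighv1-78, from 0.769, 0.341 and 0.349 CPM in untreated homozygous mice to 1.81, 1.17 and 3.54 CPM in homozygous mice given SCFA (2.11 ± 0.58, adjusted p = 0.0341). Its groups did not overlap, and the call was lost without homozygous untreated 2 or 3 or homozygous SCFA 3 (highest adjusted p = 0.170), with limma-voom (0.0552) and with the replicate number as a block (0.0646). Ighv9-3 had a fitted change of 0.49 ± 0.27 (adjusted p = 0.297). Ighv7-1 had -1.68 (adjusted p = 0.0808, edgeR) here, on the side of the falls, and was called in 4 of 18 alternative fits. Between untreated genotypes, Ighv1-78 had likewise been on the lower side (-1.68, adjusted p = 0.0627, edgeR), and was called with DESeq2 (0.0347).

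**Figure D3:**
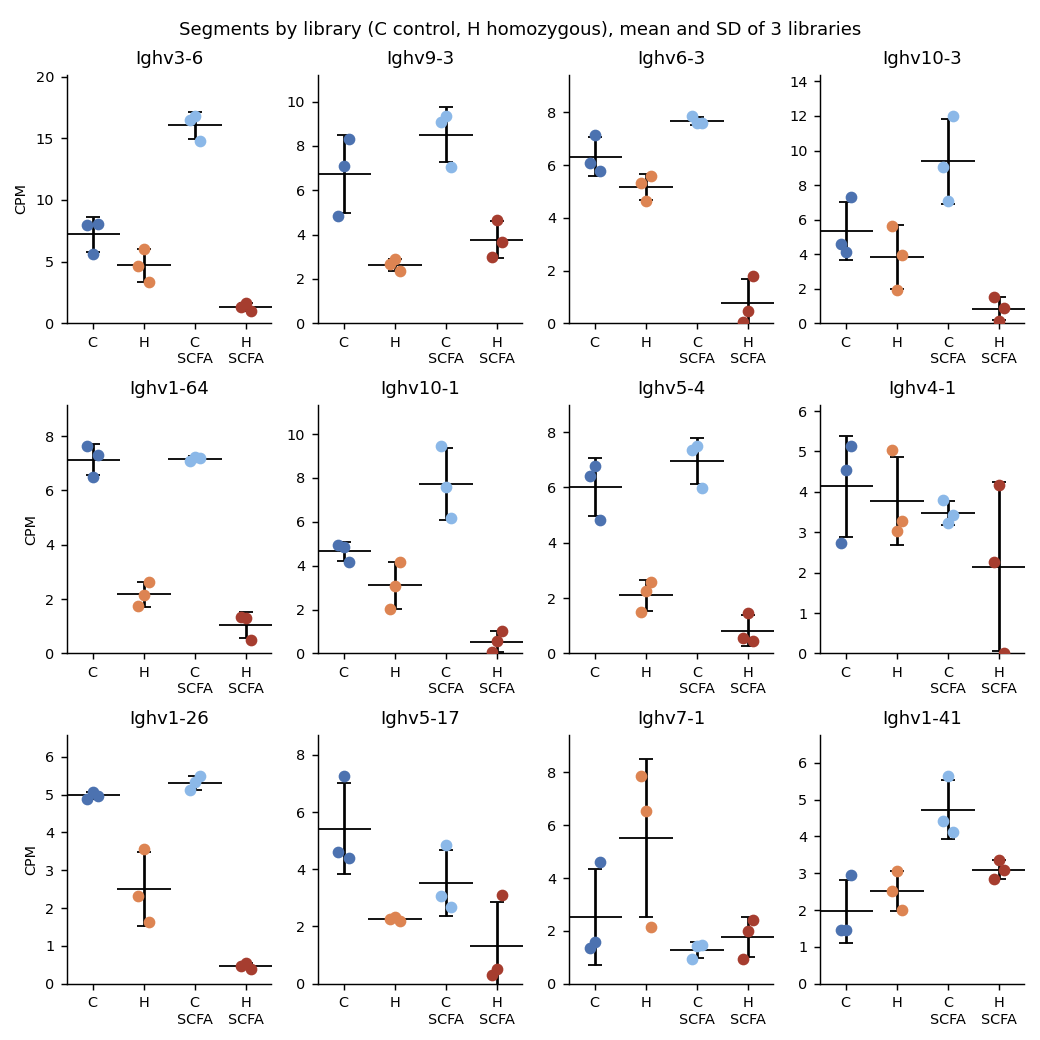
CPM of 12 Ighv segments in the 12 libraries (points), with mean and SD of 3 libraries per group, C for control and H for homozygous mice. Ighv3-6 reaches 16.8 CPM in controls given SCFA and stays at 1.68 CPM or below in homozygous mice given SCFA. Ighv1-41, Ighv4-1 and Ighv7-1 were not called between genotypes by edgeR. Their levels are not alike throughout, since the Ighv1-41 libraries of the genotypes do not overlap under SCFA.

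For several segments the difference between genotypes was itself larger under SCFA. Tested as the change of the genotype difference between treatments, 20 of 74 segments passed in the negative direction and 0 in the positive one (edgeR, adjusted p under 0.05), where 11.6% of all genes tested passed in the negative and 13.6% in the positive direction. At an unadjusted p under 0.05, 0 segments passed in the positive direction, and DESeq2 and limma-voom called 0 there. DESeq2 gave no adjusted p for 27 of the 74 segments here and could not call them. The median over the 74 segments was -1.56 on the log2 scale, or -1.52 with the 4 segments at 0 counts set at their bound, and -0.08 over all genes tested. Without the filter the median was -1.52 over 133 segments. Ighv3-6 had -3.08 ± 0.40 (adjusted p = 3.1e-04) and Ighv1-26 had -2.62 ± 0.49 (adjusted p = 0.00309). Ighv9-3, at 0.05 ± 0.37 (adjusted p = 0.942), and Ighv1-41, at -1.11 ± 0.50 (adjusted p = 0.116), did not pass.

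Position along the locus gave different pictures with and without SCFA. The 183 segments were divided into 3 sections of 61 by distance from the joining segment Ighj1, the proximal section from 143 to 884 kb, the middle section from 890 to 1507 kb and the distal section from 1516 to 2580 kb. Without SCFA, 7 of 27 tested segments fell in the distal section, 1 of 23 in the middle and 3 of 24 in the proximal section, with median log2 fold changes of -1.57, -0.83 and -0.80. Under SCFA, 14, 17 and 13 fell in the distal, middle and proximal section, with medians of -2.18, -3.46 and -2.28 (-2.18, -3.44 and -2.28 with segments at 0 counts set at their bound). Distal segments thus had the lowest median without SCFA, and middle segments had it under SCFA. For comparison, 8.13% of all genes tested fell without SCFA and 8.47% under SCFA. Leaving out 1 library gave 5 to 14 calls in place of 11 without SCFA, so the counts per section there rest on few calls. For SCFA in homozygous mice, 5, 10 and 6 fell in the distal, middle and proximal section, and in control mice 0 fell in each section. Of all genes tested, 5.61% fell with SCFA in homozygous and 13.0% in control mice.

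Shares of the sum followed the same division. The distal section held 32.8%, 34.4% and 30.4% of Ighv counts in untreated controls, 20.1%, 22.2% and 23.6% in untreated homozygous mice, 28.4%, 26.0% and 29.3% in controls given SCFA and 33.3%, 29.5% and 32.4% in homozygous mice given SCFA. Every homozygous untreated library lay below every library of the other 3 groups, and under SCFA the homozygous libraries lay just above the control libraries. For the middle section the low group was homozygous SCFA, with 21.4%, 21.2% and 25.3%, against 29.2% to 37.7% over the other 9 libraries. By subfamily, the distal families 1 and 8 together held 52.0%, 51.5% and 48.6% in untreated controls, 35.7%, 39.2% and 43.6% in untreated homozygous mice, 46.2%, 44.3% and 46.3% in controls given SCFA and 48.3%, 45.4% and 45.2% in homozygous mice given SCFA, so that the genotypes overlapped under SCFA. The proximal families 2 and 5 together held 10.5% to 21.5%, and their shares overlapped in all 4 comparisons.

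**Figure D4:**
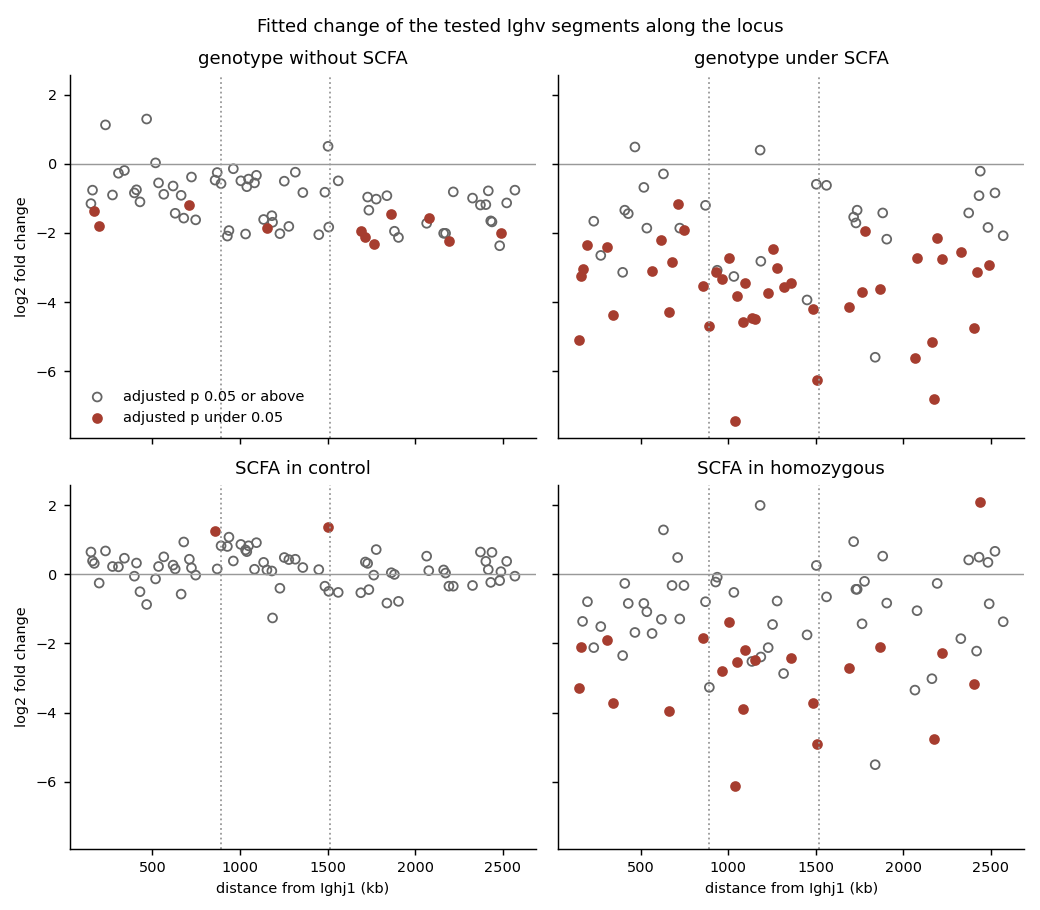
Fitted log2 fold change of the 74 tested Ighv segments against the distance from Ighj1 in kb, 1 panel per comparison, with called segments filled and dotted lines between the sections of the locus. Without SCFA, 7 of the 11 called segments lie in the distal section, a total that was 5 to 14 with 1 library left out. Under SCFA called segments lie along the whole locus. Fitted values of the 4 segments with 0 counts in homozygous mice given SCFA depend on the prior count of the fit and are no bound.

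The mix of segments was narrower in homozygous mice. The effective number of segments, the exponential of the Shannon entropy of the shares, equals the number of segments when all have the same share. It was 65.7, 66.7 and 68.6 in untreated controls, 49.2, 53.0 and 54.9 in untreated homozygous mice, 61.2, 60.7 and 61.6 in controls given SCFA and 37.6, 40.5 and 35.0 in homozygous mice given SCFA. The ranges of the groups did not overlap. Because libraries with fewer Ighv counts show fewer segments, the number of segments expected in a draw of 724 Ighv counts, the smallest sum of any library, was also computed. It was 90.2 to 94.6 in untreated controls, 81.1 to 85.9 in untreated homozygous mice, 89.1 to 92.1 in controls given SCFA and 65.4 to 72.6 in homozygous mice given SCFA, so the order of genotypes was the same at equal depth, and the control groups overlapped. The most counted segment held 3.72% to 4.53% of Ighv counts in untreated controls, 5.92% to 8.40% in untreated homozygous mice, 6.98% to 7.67% in controls given SCFA and 8.01% to 9.27% in homozygous mice given SCFA.

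In both homozygous groups, most pseudogene counts came from 1 segment. Pseudogenes held 2.03% to 3.11% of Ighv counts in untreated controls, 3.70% to 4.45% in untreated homozygous mice, 3.82% to 4.41% in controls given SCFA and 7.25% to 8.84% in homozygous mice given SCFA. Ighv1-41 alone held 0.757% to 1.49%, 2.11% to 3.29%, 1.94% to 2.56% and 6.65% to 7.60% in the same order. The other 69 pseudogenes together held 0 to 1.98% in all 12 libraries. In each untreated control library they held more than Ighv1-41 (1.98% against 0.826%, 1.27% against 0.757% and 1.62% against 1.49%). In controls given SCFA they held about as much or less (1.79% against 2.03%, 1.85% against 2.56% and 1.94% against 1.94%). A large part from Ighv1-41 was thus not limited to homozygous mice. The level of Ighv1-41 in CPM, 3.09 ± 0.258 (SD, n = 3) in homozygous mice given SCFA, lay within the range of 1.46 to 5.63 CPM of the other groups.

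Compared per length, as CPM per kb of annotated exon averaged over the 12 libraries, Ighv3-6 had 20.9, Ighv9-3 15.4, Ighv6-3 14.0, Ighv10-3 12.9, Ighv10-1 11.2 and Ighv1-64 10.8. Exon lengths of the 74 segments were alike, with a median of 357 bases (329 to 461), so length changed this order little.

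Genes of the machinery around the segments were read from lists taken with the marker lists. Of 10 genes of V(D)J recombination and the pre-B cell receptor, 7 fell in homozygous mice without SCFA and all 10 fell under SCFA (edgeR, adjusted p under 0.05). Among all genes tested, 8.13% fell without SCFA and 8.47% under SCFA. Their summed level was 1058 to 1177 CPM in untreated controls, 348 to 393 in untreated homozygous mice, 904 to 992 in controls given SCFA and 78.1 to 91.1 in homozygous mice given SCFA. Rag1 had 44.9, 48.8 and 38.6 CPM in untreated controls, 18.5, 16.4 and 12.9 in untreated homozygous mice, 51.0, 51.5 and 72.4 in controls given SCFA and 0 counts in each library of homozygous mice given SCFA. That is at least 1091-fold lower than control SCFA (3380 counts, floor of 3 counts over the group, adjusted p = 3.2e-09, edgeR), and Rag2, with 2385 counts against 0, was at least 770-fold lower. Igll1, which codes for part of the surrogate light chain, had 1274 counts in controls given SCFA and 3 in homozygous mice given SCFA. The segments, by contrast, had a sum of 724 to 992 counts in those same 3 libraries.

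Of 13 factors of locus contraction, accessibility and Ighv promoters, 6 fell in homozygous mice without SCFA and 9 fell and 1 rose under SCFA. Among all genes tested, 8.13% fell without SCFA, and 8.47% fell and 8.89% rose under SCFA. Ebf1, an early B cell factor, had a mean of 128 CPM in untreated controls, 45.3 in untreated homozygous mice, 170 in controls given SCFA and 8.20 in homozygous mice given SCFA (log2 fold change between genotypes under SCFA -4.36 ± 0.13, adjusted p = 5.5e-11, edgeR). Pax5 had 38.1, 14.3, 62.6 and 3.12 CPM, and Pou2af1, the coactivator of octamer promoters, 132, 46.8, 162 and 9.50 CPM in the same order. Yy1, which is expressed in many cell types, had 49.5, 50.9, 54.8 and 48.6 CPM and was not called in any comparison (adjusted p = 0.336 to 0.591 between 2 groups with edgeR, except 0.807 for SCFA in homozygous mice). The 4 light chain constant genes fell together with the heavy chain, 4 of 4 in both genotype comparisons, from a summed 654 to 747 CPM in controls given SCFA to 128 to 155 CPM in homozygous mice given SCFA.

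Markers of other cells that could hold Ighv transcripts were read beside the segments. The counts of calls stand beside the shares over all genes tested. These were 8.13% fallen and 6.69% risen without SCFA, and 8.47% fallen and 8.89% risen under SCFA. Of 8 mature B cell markers, 4 fell without SCFA and 5 under SCFA, and their summed level was 1298 to 1349 CPM in untreated controls, 580 to 644 in untreated homozygous mice, 1225 to 1327 in controls given SCFA and 339 to 373 in homozygous mice given SCFA. Of 8 plasma cell markers, 7 were tested: 2 rose and 3 fell without SCFA, and 0 rose and 3 fell under SCFA. Their summed level was 553 to 581, 570 to 585, 492 to 537 and 442 to 496 CPM in the same order, most of it from Xbp1. Jchain, which links antibody subunits, rose in untreated homozygous mice (log2 fold change 1.55 ± 0.40, adjusted p = 0.0217, edgeR), while Tnfrsf17, a defining plasma cell receptor, had 1 count in all 12 libraries together. T cell markers, of a lineage in which the Cre is active, fell in 1 of 8 without SCFA and 2 of 8 under SCFA, at a summed 64.2 to 77.6, 43.2 to 46.5, 42.3 to 49.6 and 34.4 to 38.1 CPM. The 2 that fell under SCFA were Cd8a (-1.67 ± 0.24, adjusted p = 3.4e-04, edgeR) and Cd4 (83 counts against 349, adjusted p = 0.0171), while 5 of the 8 had fitted changes above 0, none called, and the median was 0.44. Of 6 plasmacytoid dendritic cell markers, 3 fell without SCFA and 4 under SCFA, from a summed 719 to 794 CPM in controls given SCFA to 224 to 304 CPM in homozygous mice given SCFA. Without SCFA these were Ly6d, Spib and Irf8. Siglech (-0.40, adjusted p = 0.134), Tcf4 (-0.42, adjusted p = 0.107) and Bst2 (0.41, adjusted p = 0.0849, edgeR) were not called. Under SCFA Siglech, Tcf4, Ly6d and Spib fell, while Bst2 (0.04) and Irf8 (0.02) were not called. What part these other cells have in the Ighv levels was not tested.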

How the data were processed

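RNA-seq counts per gene were read for 12 libraries. The authors aligned reads with STAR to mm10 and counted them with featureCounts, per the submitters' processing notes, and deposited whole-number counts without normalization. Tool versions, gene annotation, strand setting and the handling of reads that match several segments were not given in the sources used here. A low-input poly(A) protocol made the libraries, per the labels' protocols. CPM were computed here from the deposited totals, with no further scaling. The test was edgeR 4.0.16 under R 4.3.3 (TMM factors, filterByExpr by group, quasi-likelihood F test, 1 fit of 4 group means over 12 libraries). Adjusted p-values are Benjamini-Hochberg over 15674 genes, called under 0.05, and the script was tested on simulated data. Sums, shares and diversity have no test. Alternatives were RLE factors, no filter, DESeq2 1.42.0, limma 3.58.1 (voom with quality weights), a replicate block, only the groups compared, and each library left out. Positions and sequences come from GENCODE M21, in which all 183 symbols were found, and V exons were compared with Biopython 1.88. Named are the 10 segments with the highest mean CPM, the 4 largest called rises and falls per comparison, the most counted segment of each library, and genes of the marker lists. Other segments were named after their values were seen. Members and lists were chosen with earlier results of these data known.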

Additional observations from a re-analysis of the deposited data

Results flagged for a closer look

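For 20 segments the genotype difference under SCFA differed from that without SCFA in the test of the difference itself (edgeR's quasi-likelihood test, adjusted p from 3.1e-04 to 0.05). The values here are the homozygous against control log2 fold change under SCFA minus that without SCFA. They were -3.08 for Ighv3-6, -3.38 for Ighv10-1, -3.11 for Ighv10-3, -3.19 for Ighv6-3 and -2.24 for Ighv6-6, members of the subfamilies whose levels were also higher in control SCFA than in control untreated libraries. In subfamily 2 they were -4.18 for Ighv2-9-1 and -2.50 for Ighv2-2, in subfamily 5 they were -3.93 for Ighv5-2 and -1.67 for Ighv5-4, and in subfamily 8 they were -2.16 for Ighv8-8 and -1.94 for Ighv8-12. In subfamily 1 they were -4.04 for Ighv1-5, -3.56 for Ighv1-75, -3.37 for Ighv1-39, -3.31 for Ighv1-22, -2.62 for Ighv1-26 and -2.61 for Ighv1-9. Ighv1-2 had -6.79 and Ighv1-67 had -4.80 with 0 counts in homozygous SCFA libraries, and Ighv1-63 had -3.88 with 1 count, so that these fitted sizes depend on the prior count and are no bound. The calls of Ighv1-67 and Ighv1-63 were lost in 14 and 13 of 16 alternative fits, with adjusted p up to 0.138 and 0.123 (edgeR, limma-voom or DESeq2). The call of Ighv5-4 (adjusted p = 0.0379) was lost in 10 of 17, with adjusted p up to 0.0899. Ighv2-9-1, Ighv1-5, Ighv5-2, Ighv1-75, Ighv1-39 and Ighv1-22 had 3, 9, 5, 6, 6 and 7 counts in homozygous SCFA libraries. Their fitted sizes thus rest on few counts too. For these segments and for Ighv2-2, Ighv6-6, Ighv8-8, Ighv8-12 and Ighv1-9, alternative fits were not read individually, so how far their calls hold is not known.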

How the results depend on the processing

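No called value of a named segment changed sign in any alternative that was run, and 33 named fits changed sign where neither fit made a call. Of 1931 alternative fits of named segments, 97 lost a call and 33 gained one. Of the 5 counts of called segments, the one without SCFA (11) was 18 with DESeq2, 18 with limma-voom and 6 with only the groups compared. For SCFA in control mice it was 4 with limma-voom (2 in the report), and for SCFA in homozygous mice 13 with only the groups compared (22 in the report). With only the groups compared, 68 segments passed the filter for genotype without SCFA and 43 for SCFA in homozygous mice, in place of 74. The cause of these differences was not tested. Leaving out 1 library gave 5 to 14 calls for genotype without SCFA, 39 to 47 under SCFA, 1 to 2 for SCFA in control mice, 14 to 22 for SCFA in homozygous mice and 14 to 22 for the interaction. With the replicate number as a block the counts were 10, 43, 2, 19 and 17. Same-numbered libraries did not deviate together (correlations -0.114 to 0.108 over 18 pairs), so the numbers were not taken as pairs.

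The summed level with scaled library sizes was 178 CPM (TMM) and 176 CPM (RLE) in control untreated and 97.3 and 98.1 CPM in homozygous untreated libraries, so that the genotype ratio without SCFA was 0.547 and 0.558 in place of 0.493. Without the most counted segment the sum was 87.0 CPM in homozygous untreated and 200 CPM in control SCFA libraries, and with only segments that passed the filter it was 90.1 and 207 CPM. The order of groups was the same. Leaving out 1 library gave sums of 186 to 197 CPM in control untreated, 93.4 to 93.8 in homozygous untreated, 215 to 219 in control SCFA and 40.0 to 46.5 in homozygous SCFA mice. The effective number of segments was 66.2 to 67.6, 51.1 to 54.0, 61.0 to 61.4 and 36.3 to 39.0 in that order. As an inverse Simpson index it was 52.2, 37.2, 43.0 and 26, and in control SCFA libraries it was 63.9 without the most counted segment.

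The share of distal segments by section of the locus was 32.6%, 22%, 27.9% and 31.7%, and that of proximal segments 36.6%, 44.1%, 37.4% and 45.6%, in control untreated, homozygous untreated, control SCFA and homozygous SCFA libraries. By section, homozygous libraries lay above control libraries in the distal share under SCFA and in the proximal share in both treatments, where the shares by subfamily overlapped. Without SCFA this margin in the proximal share was minimal, with 38.6% in both homozygous untreated 3 and control untreated 3. Without the most counted segment the distal share by subfamily was 52.9%, 49.2% and 50.7% in control untreated, control SCFA and homozygous SCFA libraries. Leaving out 1 library gave distal shares of 50.1% to 51.8%, 37.5% to 41.4%, 45.2% to 46.2% and 45.3% to 46.9%, and proximal shares of 17.6% to 18.9%, 16.9% to 19.9%, 16% to 17.4% and 14.8% to 19.5%. Without the most counted segment, Ighv counts per 100 Ighm counts were 17.4 in homozygous untreated and 15.7 in control SCFA libraries. Per 100 constant region counts they were 12, 12.5 and 11.6 in homozygous untreated, control SCFA and homozygous SCFA libraries, and homozygous SCFA libraries then lay below control SCFA ones, where they overlapped with all segments. Leaving out 1 library gave 11.9 to 12.8, 18.1 to 19.2, 16.9 to 17.1 and 19.2 to 21.6 per 100 Ighm counts, and 10.2 to 10.8, 12.6 to 13.1, 13.4 to 13.6 and 12.3 to 13.2 per 100 constant region counts. Homozygous SCFA libraries hold 724 to 992 Ighv counts each, so that single segments there rest on few counts and differences of low segments are often not detectable.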
